A study of Mus musculus with 3 samples.

Results

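Primary peritoneal macrophages of the mouse, labelled WT, received apoptotic cells for 5 h, 5 of them for each macrophage, and their RNA was compared with that of untreated WT peritoneal macrophages. The comparison covers every gene symbol with a value above 0 in both libraries and a 3-library mean of 1 FPKM or more (fragments per kilobase of transcript, scaled to the mapped fragments of each library), which gave 3369 of 20574 symbols. The third library came from WT macrophages given LPS, a bacterial lipid, at 100 ng/ml for 5 h, and its values stand beside the others for orientation. Apoptotic cells that had not been engulfed were rinsed off before RNA extraction. The kind of apoptotic cell, the strain, age and sex of the mice and the number of animals are not stated in the labels, and neither is a time for the untreated library, so treatment and time in culture cannot be told apart. Each condition had 1 library, so the values below describe 3 libraries, with no error between replicates and no p-value.

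Macrophages clear dying cells by efferocytosis. They recognise lipids and opsonins on the dying cell through surface receptors, close an actin-driven cup around it, and digest the corpse in a phagosome that fuses with lysosomes. The phagocyte then has to store, export or burn a load of lipid, amino acids, nucleotides and iron, and clearance of this kind is known to go with muted inflammatory signalling and with secretion of repair factors. Resident peritoneal macrophages are a standard cell for studying it.

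Of the 3369 genes, 418 (12.4%) were at least 2-fold higher with apoptotic cells and 554 (16.4%) were at least 2-fold lower, on the ratio log2((FPKM with apoptotic cells + 1) / (FPKM untreated + 1)). From here on, higher and lower are said of single genes past that 2-fold mark. These shares are the background for every count of list members below. The filter on the mean includes both libraries compared. A gene low with LPS and in 1 of these libraries could thus enter only by being high in the other, which fixed its direction. The remaining 2397 genes lay within 2-fold. The median log2 ratio was -0.13, with quartiles of -0.72 and 0.49, and the ratios ran from -5.55 for Ptgs2 to 4.62 for Tmem37. At least 4-fold differences were seen for 96 genes that were higher and 143 that were lower. Of all genes past 2-fold, 43.0% were higher as the values were deposited and 56.4% after median-of-ratios scaling, which counted 537 higher and 415 lower genes. That scaling shifted the median of all genes by 0.19 on the log2 scale, so a list median near 0 has no settled direction here.

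**Figure D1:**
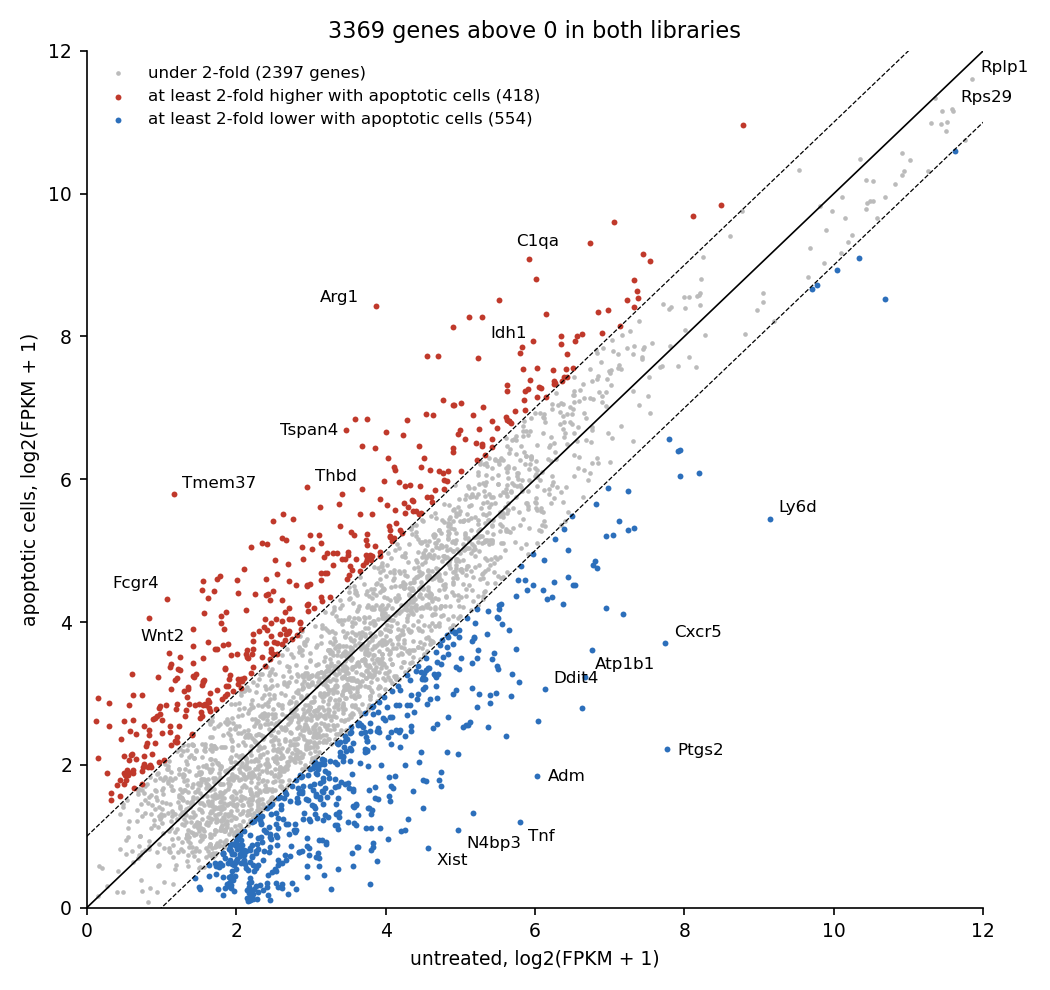
Each point is 1 of the 3369 genes, with log2(FPKM + 1) in the untreated library on the x axis and with apoptotic cells on the y axis; the solid line marks equal values and the dashed lines 2-fold. Red points (418 genes) lie at least 2-fold above equality and blue points (554 genes) at least 2-fold below, with Tmem37 and Arg1 highest above the line and Ptgs2, Tnf and Adm farthest below it.

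The tables hold many exact zeros, 13827 untreated, 12604 with apoptotic cells and 12730 with LPS. Among the genes whose mean reached 1 FPKM, 2278 were listed at 0 in the untreated library only, 837 with apoptotic cells only and 663 in both. Abundant genes were among them: Laptm5, a lysosomal membrane protein gene of blood cells, was listed at 0 untreated, 560 FPKM with apoptotic cells and 199 with LPS, a gene chosen after its values were seen. The share of zeros grew with the number of RefSeq transcripts of a gene. Of genes above 5 FPKM in both other libraries, the untreated library listed 34.6% at 0 where RefSeq has 1 transcript, 46.9% where it has 2 and 51.9% where it has 3 or more. With apoptotic cells those shares were 15.2%, 19.4% and 34.5%. A listed 0 therefore enters no ratio. Each 0 FPKM given below is a listed 0, which may be a failed estimate. Members listed at 0 in either library compared were left out of the list counts of higher and lower genes.

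The deposited values summed to 199881 untreated, 197222 with apoptotic cells and 200224 with LPS. Read totals are not stated in the labels. Steps between the smallest values put 1 FPKM on 2 kb of transcript at about 6.56 reads untreated, 5.76 with apoptotic cells and 6.15 with LPS, but the steps were weakly defined, so these are rough. The 100 most abundant genes took 56.9% of the untreated sum and 42.5% with apoptotic cells. The ratio varied with level. From the lowest to the highest of 5 equal groups by mean FPKM, the median log2 ratio was -0.35, -0.38, -0.20, -0.02 and 0.27, the share of genes at least 2-fold higher went from 7.27% to 19.0%, and the share at least 2-fold lower from 21.1% to 9.50%. Abundant genes as a whole thus had larger ratios than the rest, so the medians of the lists that stand apart are also given relative to genes of their own level group.

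**Figure D2:**
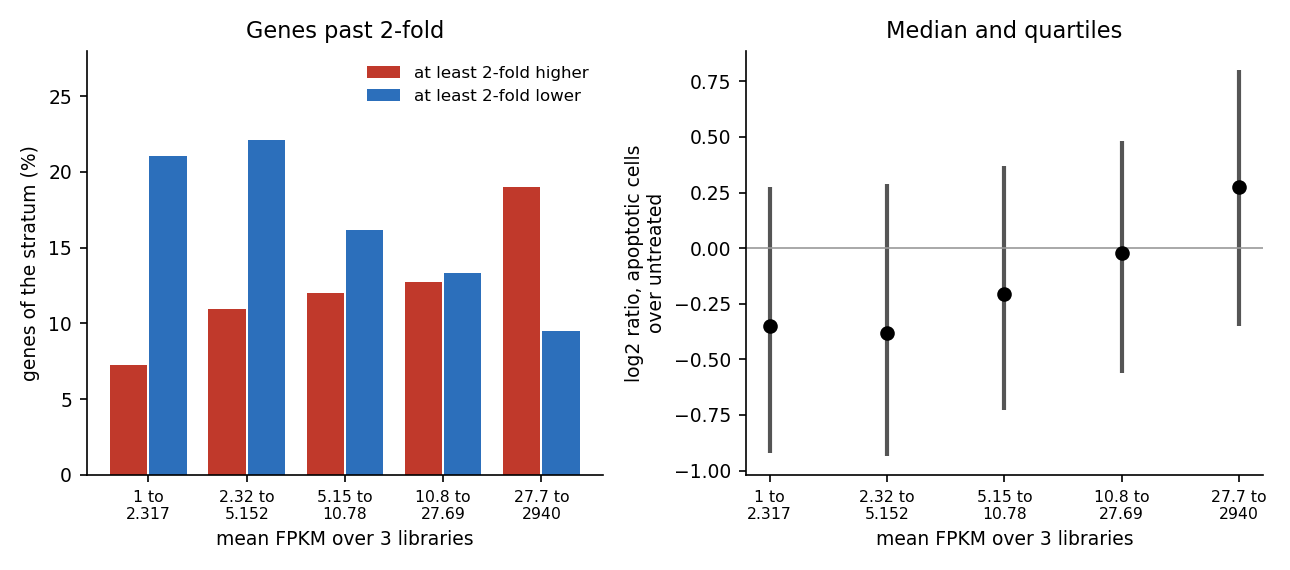
Genes in 5 equal groups by mean FPKM over 3 libraries (x axis); the left bars give the percentage of each group at least 2-fold higher (red) or lower (blue) with apoptotic cells, and the right points and lines the median and quartiles of the log2 ratio. The lower genes outnumber the higher ones in the 4 groups of lowest level, and the higher genes lead in the most abundant group (19.0% against 9.50%).

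The macrophage label was checked against marker genes. Of 12 macrophage markers 6 were in the table, and the others were not analysed here. Csf1r, the receptor of the macrophage growth factor, stood at 56.3 FPKM untreated and 185 with apoptotic cells, and was listed at 0 with LPS. Cd14, the co-receptor for LPS, stood at 303 and 555 FPKM in the same order, and was also listed at 0 with LPS. These LPS zeros may be failed estimates. The signalling adaptor genes Tyrobp, at 413 FPKM, and Fcer1g, at 290.2 FPKM, were above 0 only in the untreated library. Both libraries compared thus held macrophage transcripts at high level, and of the 4 markers above 0 in both, 3 were at least 2-fold higher with apoptotic cells. Fcgr1, counted among these 3, passed the filter on the mean only through the library with apoptotic cells. The markers Cxcl13, Apoc1, Naip1 and Cd9 of large peritoneal macrophages were also at least 2-fold higher, while Lyz1 (349 FPKM) and F5 (29.6 FPKM) of that list had values untreated and a listed 0 with apoptotic cells. In bulk RNA, more cells of a type and more RNA per cell cannot be told apart.

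The largest positive ratio belonged to Tmem37, a calcium channel subunit-like membrane protein gene on chromosome 1 from 120067377 to 120074074 (minus strand, mm10). It stood at 1.25 FPKM untreated, 54.5 with apoptotic cells and 1.34 with LPS, a log2 ratio of 4.62. Only the library with apoptotic cells was high. Arg1, the arginase of alternatively activated macrophages, came next with 13.7, 344 and 19.1 FPKM (4.55). Wnt2, a secreted Wnt ligand, was likewise high only with apoptotic cells, with 0.779, 15.7 and 0.677 FPKM (3.23), and so was Sepp1, the plasma selenium carrier, with 22.6, 210.3 and 24.6 FPKM (3.16). In these 4 genes the untreated and LPS values lay close together.

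At the other end stood Ptgs2, the inducible prostaglandin synthase gene on chromosome 1 from 150100031 to 150108227 (plus strand). It was listed at 218 FPKM untreated, 3.67 with apoptotic cells and 0 with LPS, a log2 ratio of -5.55. The inflammatory cytokine gene Tnf followed with 54.6, 1.30 and 264 FPKM (-4.59), and Adm, the vasodilator peptide adrenomedullin, with 64.3, 2.58 and 37.8 FPKM (-4.19). For Tnf and Adm the library with apoptotic cells was the low one of 3. The adaptor gene Bcar3 stood at 98.0, 5.93 and 6.27 FPKM (-3.84), and the sodium pump subunit gene Atp1b1 at 100.4, 8.35 and 1.19 FPKM (-3.44). For Bcar3 and Atp1b1 the untreated library was the high one, with low values under both treatments.

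The promoters of Tmem37 and Ptgs2 are shown because they belong to the genes at both ends of the ranking. Each is the stretch of 250 bases before the RefSeq start (GRCm38.p6), given 5′ to 3′ on the strand of the gene, for Tmem37 chr1:120073781-120074030 on the minus strand and for Ptgs2 chr1:150099781-150100030 on the plus strand. Capitals mark matches, on either strand, to TGACTCA, the AP-1 element, and to a loose form of the NF-kB element.
Tmem37: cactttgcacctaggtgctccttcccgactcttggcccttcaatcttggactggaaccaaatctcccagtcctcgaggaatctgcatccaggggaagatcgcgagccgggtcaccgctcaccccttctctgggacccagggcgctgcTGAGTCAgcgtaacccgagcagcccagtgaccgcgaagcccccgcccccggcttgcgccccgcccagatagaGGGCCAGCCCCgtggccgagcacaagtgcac
Ptgs2: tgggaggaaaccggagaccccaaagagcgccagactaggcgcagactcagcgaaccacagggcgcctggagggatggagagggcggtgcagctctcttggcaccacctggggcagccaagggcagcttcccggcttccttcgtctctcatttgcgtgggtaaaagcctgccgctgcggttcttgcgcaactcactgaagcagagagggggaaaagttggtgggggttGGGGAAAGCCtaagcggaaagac
Tmem37 held TGACTCA on the minus strand, with its first base 103 bases before the start, and overlapping matches to the NF-kB element from 31 bases before it. In Ptgs2 a match to the NF-kB element began 23 bases before the start. These letters are common. Over all windows from 250 bases before to 50 after a start, 50.8% held the loose NF-kB element, against 69.5% of the windows of the higher genes, 67.6% of the lower and 68.8% of those within 2-fold. TGACTCA was in 5.20% of all windows, 5.88% of the higher, 3.82% of the lower and 3.32% of the rest. Windows were found for 311 of the 418 higher genes and 376 of the 554 lower ones. A match is a stretch of letters and says nothing of binding.

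**Figure D3:**
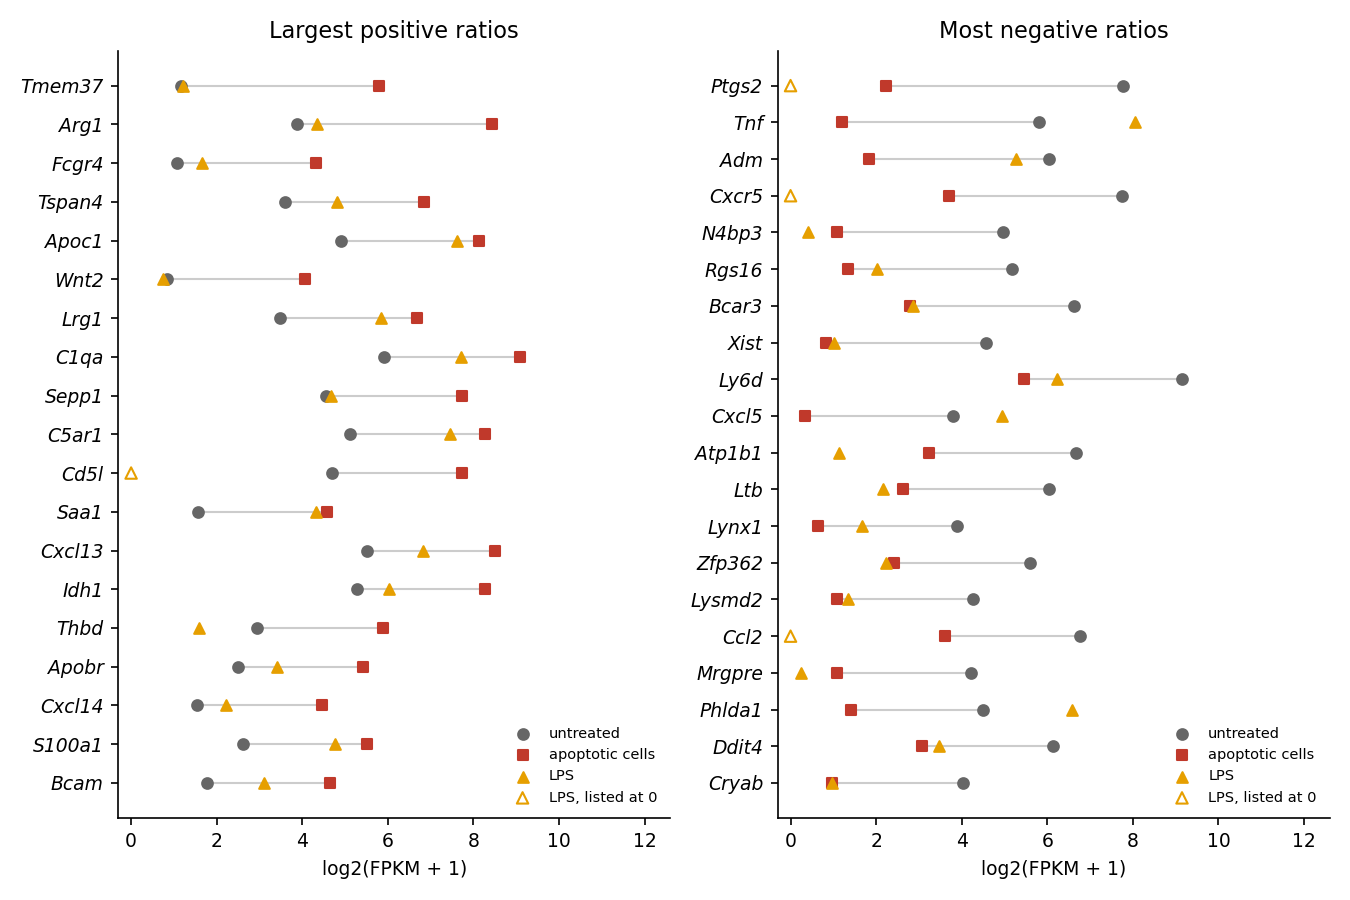
Genes of the 20 largest positive (left, with 1 gene not drawn) and 20 most negative (right) log2 ratios, with log2(FPKM + 1) on the x axis for the untreated library (grey circles), apoptotic cells (red squares) and LPS (orange triangles, open where listed at 0). Among the higher genes the red square is the rightmost symbol of every row, and among the lower genes the grey circle is the rightmost except for Tnf, Cxcl5 and Phlda1, where LPS is. The LPS values of Cd5l, Ptgs2, Cxcr5 and Ccl2 are listed zeros, so the order of the symbols does not rank their libraries.

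The other genes of the top 20 on the higher side included Fcgr4, Tspan4, Apoc1, Lrg1, C1qa, C5ar1, Cd5l, Saa1, Cxcl13, Idh1, Thbd, Apobr, Cxcl14, S100a1 and Bcam, with ratios down to 2.87. The chemokine genes Cxcl13, at 44.7, 364 and 112 FPKM (3.0), and Cxcl14, at 1.90, 20.9 and 3.67 FPKM (2.92), were among them. Thbd, the thrombin receptor thrombomodulin, stood at 6.72 FPKM untreated, 58.1 with apoptotic cells and 2.03 with LPS (2.94). Apobr, a receptor for lipoproteins that carry apolipoprotein B, stood at 4.64, 41.8 and 9.63 FPKM (2.92), and the apolipoprotein gene Apoc1 at 29.0, 281 and 195 FPKM (3.23). Idh1, the cytosolic isocitrate dehydrogenase that makes NADPH, stood at 38.1, 307 and 63.9 FPKM (2.98). Apoc1 was high in both treated libraries, whereas Thbd was lowest with LPS. Saa1, an acute-phase apolipoprotein gene, stood at 1.95, 22.9 and 18.9 FPKM (3.02), and its near-identical neighbour Saa2 makes that assignment uncertain.

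On the lower side the top 20 also held Cxcr5, N4bp3, Rgs16, Xist, Ly6d, Cxcl5, Ltb, Lynx1, Zfp362, Lysmd2, Ccl2, Mrgpre, Phlda1, Ddit4 and Cryab, with ratios up to -3.08. Several low values in this set rest on few reads: the smaller of the 2 values was under 5 FPKM in 13 of the 20 lower genes and in 7 of the 20 higher ones, and under 1 FPKM in 4 and 1. Cryab, a small heat shock protein gene, stood at 15.4 FPKM untreated, 0.950 with apoptotic cells and 0.970 with LPS. Cxcl5, a neutrophil-attracting chemokine gene, stood at 12.9, 0.264 and 29.5 FPKM (-3.46). Ltb, the membrane cytokine lymphotoxin beta, stood at 64.6, 5.15 and 3.47 FPKM (-3.41). The monocyte attractant gene Ccl2 stood at 107, 11.2 and 0 FPKM (-3.15). For Cryab and Ltb the untreated library was the high one of 3, and Cxcl5 was highest with LPS. The LPS value of Ccl2 is a listed 0, so its 3 libraries are not ranked.

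Surface receptors of the phagocyte came first in the order of roles. Fc receptors bind antibody on opsonised targets and signal through shared adaptors. All 5 members with a ratio on the list of Fc receptors and adaptors were at least 2-fold higher with apoptotic cells. Their median was 1.99, or 2.29 above genes of the same level. Fcgr4, an activating IgG receptor, stood at 1.11 FPKM untreated, 19.1 with apoptotic cells and 2.13 with LPS (3.26). Fcgrt, the receptor that recycles IgG, stood at 4.07, 33.4 and 11.4 FPKM (2.76), and the high-affinity receptor gene Fcgr1 at 0.115, 3.29 and 0.377 FPKM (1.94). The values of Fcgr1 and Fcgr4 in the untreated library are near the level of a few reads. Fcgr1, under 1 FPKM untreated and with LPS, passed the filter on the mean only through the library with apoptotic cells. The adaptor gene Hcst, not a receptor gene, gave the list median with 14.8, 62.0 and 24.8 FPKM (1.99). The adaptor genes Tyrobp and Fcer1g were listed at 0 with apoptotic cells, so the list cannot be read as a whole.

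Complement tags dying cells and its receptors sense the fragments. The 3 members with a ratio were all at least 2-fold higher. C1qa, which encodes a chain of the recognition protein C1q, stood at 59.4 FPKM untreated, 544 with apoptotic cells and 209 with LPS (3.18). C5ar1, the receptor of the fragment C5a, stood at 33.8, 308 and 175 FPKM (3.15), and the protease gene C1ra at 1.28, 8.11 and 4.53 FPKM (2.0). Another 9 members were above 0 untreated and listed at 0 with apoptotic cells, among them C4b at 202 FPKM and Cfp, which encodes properdin, at 156 FPKM. The genes C1qb (129.6 FPKM untreated) and C1qc (83.2 FPKM), whose chains join that of C1qa in 1 protein, were listed at 0 with apoptotic cells and with LPS. With listed zeros counted as values the median of the list turned from 3.15 to -4.39. C1qb and C1qc are named for that contrast with C1qa, after their values were seen.

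Lectins bind sugars and sialic acids. Among C-type lectins, galectins and sialic acid lectins 4 of 7 members were higher and 0 lower, with a median of 1.12, or 1.5 above genes of the same level. Clec10a, a galactose-binding receptor, stood at 1.67 FPKM untreated, 9.78 with apoptotic cells and 0.905 with LPS (2.01). Clec4a1, another C-type lectin receptor gene, stood at 4.19, 14.3 and 12.7 FPKM (1.56), and Clec5a, a receptor that signals through the adaptor Tyrobp, at 0.467, 2.62 and 3.32 FPKM (1.30). The galectin gene Lgals3 was listed at 0 untreated, 744 FPKM with apoptotic cells and 137 with LPS. Scavenger receptors had 2 members with a ratio, both at least 2-fold higher. Another 4 were listed at 0 with apoptotic cells only, among them Olr1 at 25.5 FPKM untreated, and 1 in the untreated library only. Cd5l, a secreted scavenger protein of tissue macrophages, stood at 25, 210.0 and 0 FPKM (3.02), and Scarb1, a receptor for high-density lipoprotein, at 7.77, 23.2 and 12.7 FPKM (1.46).

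Integrins and other adhesion molecules went both ways, with 3 of 8 members higher, 1 lower and a median of 0.08. Itgb5 encodes the beta chain of an integrin that takes part in the uptake of apoptotic cells, and it stood at 3.30 FPKM untreated, 25.7 with apoptotic cells and 2.77 with LPS (2.63). The tetraspanin genes Tspan4, at 11.1, 114 and 27.3 FPKM (3.26), and Cd9, at 357, 912 and 630.5 FPKM (1.35), were higher as well. The integrin beta chain gene Itgb1 was listed at 137 FPKM untreated and at 0 in both treated libraries.

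Receptors for chemoattractants, lipids and nucleotides had 1 of 14 members higher, C5ar1, and 4 lower. The lower ones were Cxcr5, a lymphocyte homing receptor, at 214 FPKM untreated, 12.1 with apoptotic cells and 0 with LPS (-4.03), Gpr18, Adora2b and S1pr1. Gpr18 stood at 25.7, 2.26 and 4.62 FPKM (-3.03). Adora2b, an adenosine receptor gene, stood at 10.8, 2.16 and 65.7 FPKM (-1.90). The median of this list was -0.15 as deposited and 0.03 after median-of-ratios scaling, so the list as a whole had no direction. Of 17 cytokine and growth factor receptors, 5 were higher and 3 lower. Among the higher ones, all but Csf1r belong to the TNF receptor family: Tnfrsf21 stood at 7.81, 33.4 and 21.4 FPKM (1.97) and Tnfrsf1a, the main TNF receptor gene, at 21.8, 77.9 and 74.0 FPKM (1.79). The lower ones included another gene of that family, Tnfrsf14, at 9.21, 1.22 and 0.850 FPKM (-2.20), and Tgfbr2, a TGF-beta receptor gene, at 159, 39.0 and 15.3 FPKM (-2.0).

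Microbial sensing genes had 3 of 8 members higher and 2 lower. Tlr13, an endosomal receptor for bacterial RNA, stood at 18.5 FPKM untreated, 112 with apoptotic cells and 17.4 with LPS (2.54). Lbp, the carrier that hands LPS to CD14, stood at 3.57, 32.2 and 0 FPKM (2.86), and Pycard, the inflammasome adaptor, at 16.4, 69.1 and 7.79 FPKM (2.01). Map3k8, a kinase that relays Toll-like receptor signals, went the other way with 7.61, 0.505 and 0 FPKM (-2.52). Another 13 members of this list were listed at 0 untreated only, among them Ly96, the partner of the LPS receptor, at 59.5 FPKM with apoptotic cells and 65.2 with LPS.

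Engulfment needs actin, membrane traffic and fusion. The list of actin and small GTPase genes spread around a median of 0.17, or -0.08 relative to genes of the same level, with 3 of 21 members higher and 5 lower. Coro1c, a coronin that binds actin filaments, stood at 30.9 FPKM untreated, 102 with apoptotic cells and 26.2 with LPS (1.70). Marcksl1, at 110.3, 27.8 and 0 FPKM (-1.95), Rock1, a kinase gene of actin contraction, at 19.3, 4.56 and 6.51 FPKM (-1.87), and Ezr, which links actin to the membrane, at 139, 41.6 and 44.1 FPKM (-1.71), were lower. Of 17 Rab genes, switches of vesicle traffic, 15 lay within 2-fold, Rab34 was higher (1.87, 5.29 and 4.82 FPKM) and Rab3b lower (2.53, 0.699 and 0 FPKM). The phagosome maturation list had 7 of 8 members within 2-fold, with Vamp3, a fusion protein gene, just at the mark (39.4, 80.0 and 76.5 FPKM, ratio 1.00). Autophagy genes had 9 of 10 members within 2-fold. In each of these last 3 lists the share of members past 2-fold was smaller than among all genes.

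Digestive compartments differed more. Of 6 subunits of the vacuolar proton pump, which acidifies lysosomes, 4 were higher and 0 lower, with a median of 1.09, or 0.82 above genes of the same level. The table held 17 subunits, of which 1 was listed at 0 in the untreated library only, 2 with apoptotic cells only and 7 in both. These counts thus cover part of the pump. Atp6v0d2, a subunit typical of macrophages and osteoclasts, stood at 2.08 FPKM untreated, 19.2 with apoptotic cells and 0.811 with LPS (2.71). The more abundant subunit genes Atp6v1b2, at 85.2, 214 and 124 FPKM (1.32), and Atp6v0d1, at 75.2, 164 and 0 FPKM (1.12), differed less. Lysosomal hydrolases and membrane proteins had 4 of 11 members higher and 0 lower, with a median of 0.54, or 0.69 above genes of the same level. They were the protease gene Ctsf (1.09, 6.14 and 3.52 FPKM, ratio 1.77), the cholesteryl ester hydrolase gene Lipa (114, 323 and 150 FPKM, ratio 1.5), the sialidase gene Neu1 (15.7, 36.0 and 30.4 FPKM, ratio 1.15) and the cholesterol carrier gene Npc2 (75.1, 161 and 98.2 FPKM, ratio 1.09). Another 10 members each were listed at 0 in the untreated library only and with apoptotic cells only.

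**Figure D4:**
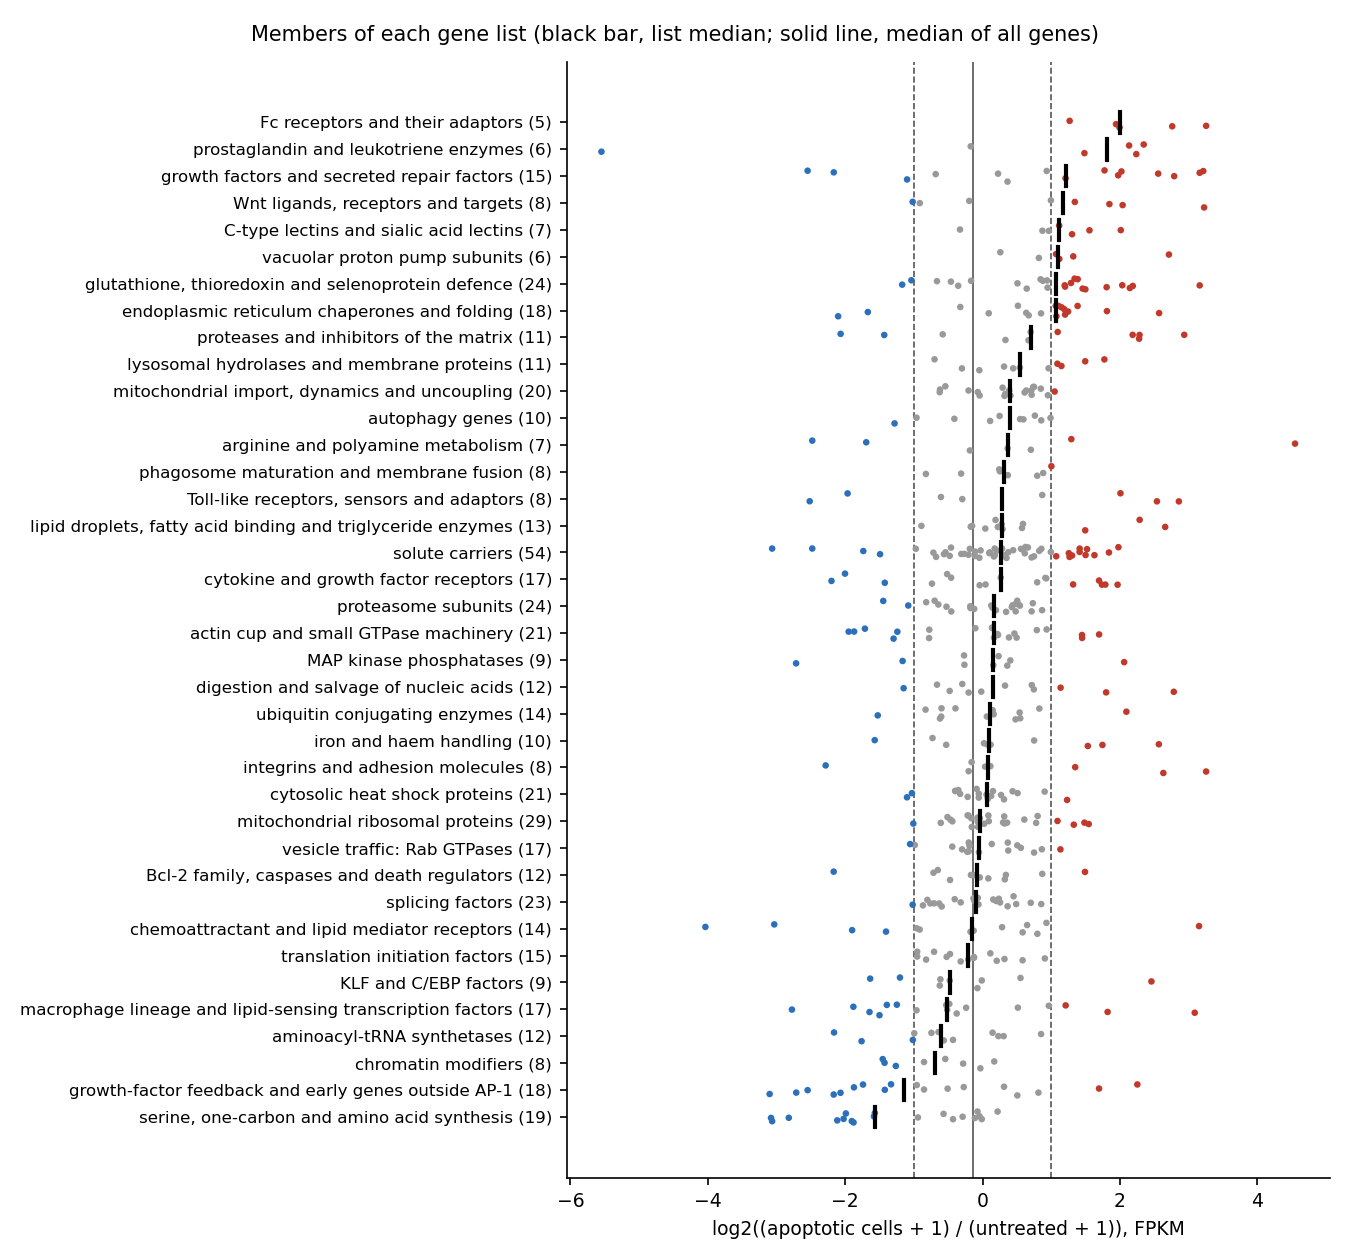
Log2 ratios of the members of 38 gene lists (points; red at least 2-fold higher with apoptotic cells, blue at least 2-fold lower), ordered by list median (black bars), with the number of members in parentheses; the solid line is the median of all genes (-0.13) and the dashed lines mark 2-fold. Fc receptors and adaptors (1.99) stand at the top. At the bottom is the list of serine, folate-linked and other amino acid synthesis (-1.57), which also holds stress and transport genes.

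The engulfed load passes into metabolism. Of 13 genes for lipid droplets and triglycerides, 3 were higher and 0 lower, and all 3 are hydrolases. Nceh1, which splits cholesteryl esters, stood at 15.0 FPKM untreated, 100.2 with apoptotic cells and 7.51 with LPS (2.66). Pla2g15, the lysosomal phospholipase, stood at 9.36, 49.6 and 10.2 FPKM (2.29), and the third was Lipa. The other 10 members lay within 2-fold, among them Pla2g4a, a cytosolic phospholipase gene and so also a hydrolase, at 20.2, 17.8 and 0 FPKM (-0.17), chosen after its values were seen. Genes that break down or salvage nucleic acids had 3 of 12 members higher and 1 lower. Xdh, which oxidises purines to uric acid, stood at 11.8, 87.3 and 5.95 FPKM (2.78), and Nt5e, the surface enzyme that makes adenosine from AMP, at 14.2, 52.1 and 4.25 FPKM (1.80). Pnp2, a purine phosphorylase gene with a near-identical neighbour, stood at 6.2, 14.8 and 20.5 FPKM (1.1), and Rrm2, the ribonucleotide reductase subunit of dividing cells, at 2.31, 0.494 and 0.674 FPKM (-1.15). Rrm2 was within 2-fold after median-of-ratios scaling.

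Arginine and polyamine genes had 2 of 7 members higher and 2 lower. Beside Arg1, the higher one was Oat, which turns ornithine towards proline and glutamate, at 74.5 FPKM untreated, 184 with apoptotic cells and 107 with LPS (1.29). Odc1, which turns ornithine into the polyamine putrescine, was lower at 75.7, 22.7 and 73.6 FPKM (-1.69), and so was Slc7a1, an importer of arginine, at 43.7, 7.02 and 55.3 FPKM (-2.48). The enzymes that use ornithine thus differed in direction. Solute carriers, transporters of small molecules, had 331 members in the table, of which 54 entered the ratios, 11 higher and 4 lower. Slc7a8, an exchanger of neutral amino acids, stood at 6.47, 28.5 and 14.8 FPKM (1.98), and Slc2a8, a glucose transporter of internal membranes, at 0.982, 6.10 and 0.625 FPKM (1.84). Slc1a4, a transporter of serine and alanine, was the lowest at 18.8, 1.37 and 7.80 FPKM (-3.06).

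Iron and haem genes had 3 of 10 members higher and 1 lower. Steap3, which reduces iron in endosomes, stood at 3.05 FPKM untreated, 23.0 with apoptotic cells and 2.70 with LPS (2.57). Hfe, a regulator of iron uptake, stood at 0.925, 5.46 and 1.39 FPKM (1.75), and Lcn2, which binds bacterial iron carriers, at 64.1, 187 and 272 FPKM (1.53). Tfrc, the receptor that brings transferrin iron into the cell, was lower at 29.8, 9.36 and 10.7 FPKM (-1.57).

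Defence against peroxides had the largest number of higher members of all the lists examined. Of 24 genes of the glutathione, thioredoxin and selenoprotein systems, 12 were higher and 2 lower, with a median of 1.07, or 1.13 above genes of the same level. Besides Sepp1 the largest were Prdx4, the peroxiredoxin of the endoplasmic reticulum, at 11.8 FPKM untreated, 57.4 with apoptotic cells and 35.7 with LPS (2.19), and the glutathione transferase gene Gsto1, at 28.8, 131 and 91.3 FPKM (2.15). Sepx1, a selenoprotein that repairs oxidised methionine, stood at 55.5, 231 and 29.6 FPKM (2.03). All 4 were highest with apoptotic cells. Another 10 members were listed at 0 with apoptotic cells only, among them Txn1, the main cytosolic thioredoxin, at 254 FPKM untreated and 0 in both treated libraries.

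Chaperones and folding enzymes of the endoplasmic reticulum had 10 of 18 members higher and 2 lower, with a median of 1.07, or 0.80 above genes of the same level. Another 10 members were listed at 0 in the untreated library only and 7 with apoptotic cells only, so these counts cover part of the list. Sdf2l1, a partner of the main chaperone of that compartment, stood at 13.5 FPKM untreated, 85.5 with apoptotic cells and 20 with LPS (2.57). Fkbp11, a prolyl isomerase gene of the secretory pathway, stood at 1.75, 8.66 and 0 FPKM (1.81). The members that were lower are not chaperones: Ppp1r15a, which restarts translation after stress, stood at 44.0, 9.49 and 48.0 FPKM (-2.1), and the oxidase gene Ero1lb at 23.1, 6.57 and 4.01 FPKM (-1.67). Folding genes of the cytosol lay elsewhere. Of 21 cytosolic and mitochondrial heat shock genes 18 were within 2-fold, 1 was higher and 2 lower, with a median of 0.06.

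Eicosanoids are lipid mediators made from arachidonic acid. Ptgs2 stood apart from the other members of its list, 4 of them higher and 1 within 2-fold. Ptgs1, the constitutive prostaglandin synthase, stood at 4.82 FPKM untreated, 24.5 with apoptotic cells and 2.56 with LPS (2.13). The leukotriene branch held Alox5, the lipoxygenase that starts it, at 0.235, 4.83 and 3.42 FPKM (2.24), and Ltc4s, which joins glutathione to leukotriene A4, at 4.75, 28.3 and 3.73 FPKM (2.35). Ptgs1 and Ptgs2, which catalyse the same step, thus lay in opposite directions. In Ptgs1 the library with apoptotic cells was the high one of 3. Ptgs2 was high untreated against apoptotic cells, and its LPS value is a listed 0.

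Secreted factors were among the lists with the highest medians. Of 15 growth and repair factor genes, 8 were higher and 3 lower, with a median of 1.21, or 1.41 above genes of the same level. Another 5 members were listed at 0 in the untreated library only and 6 with apoptotic cells only. Osm, at 41.8 FPKM untreated, was among the latter. Spp1, the matrix protein osteopontin, stood at 63.6 FPKM untreated, 446 with apoptotic cells and 154 with LPS (2.79). Lrg1, a secreted modulator of TGF-beta signalling, stood at 10.1, 102 and 56.1 FPKM (3.21), and Pros1, a bridge between dying cells and receptors of the phagocyte, at 5.14, 35.1 and 14 FPKM (2.56). The lower members were Cyr61, Lif and Vegfa, named because they are the only 3. In the Wnt list 4 of 8 members were higher and 1 lower, with a median of 1.17, or 1.47 above genes of the same level. After Wnt2 these were the receptor genes Fzd7, at 3.39, 17.0 and 6.19 FPKM (2.04), and Fzd1, at 11.6, 44.5 and 65.8 FPKM (1.85), and the secreted inhibitor gene Dkk2, at 0.474, 2.74 and 0.346 FPKM (1.34). The untreated values of Wnt2 and Dkk2 correspond to few reads. Both genes were under 1 FPKM untreated and with LPS, so they passed the filter on the mean only through the library with apoptotic cells. They could thus enter the count only with a larger value there.

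Proteases and inhibitors of the matrix and of clotting had 5 of 11 members higher and 2 lower, with a median of 0.70, or 0.87 above genes of the same level. Mmp8, a collagenase, stood at 2.48 FPKM untreated, 16.0 with apoptotic cells and 0.548 with LPS (2.29). F13a1, the clot-stabilising transglutaminase, stood at 2.64, 16.7 and 0 FPKM (2.28), and Cstb, an inhibitor of cathepsins, at 438, 1998 and 1485 FPKM (2.19). In Mmp8 and Cstb the library with apoptotic cells was the highest of 3, and the LPS value of F13a1 is a listed 0.

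Transcription factors of the macrophage lineage and lipid sensing had 3 of 17 members higher and 6 lower. Maf, a leucine zipper factor of macrophages, stood at 1.67 FPKM untreated, 8.45 with apoptotic cells and 1.69 with LPS (1.82). Runx3, a factor of lymphoid and dendritic cells, was lower at 10.7, 0.707 and 2.29 FPKM (-2.77), and so was Id3, an inhibitor of helix-loop-helix factors, at 42.7, 10.9 and 5.49 FPKM (-1.88). Cebpa, a myeloid factor, was the only member of the KLF and C/EBP list at least 2-fold higher, at 36.6, 206 and 26 FPKM (2.46), while Klf10, a gene induced by TGF-beta, stood at 19.8, 5.70 and 0.838 FPKM (-1.64). Cebpb was listed at 89.3 FPKM untreated and at 0 in both treated libraries.

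Early-response and feedback genes, which cells switch on within minutes of a stimulus, lay low. Outside the AP-1 factors, 9 of 18 such genes were lower and 2 higher, with a median of -1.1, and -1.17 relative to genes of the same level. Phlda1 stood at 21.7 FPKM untreated, 1.65 with apoptotic cells and 94.7 with LPS (-3.10). Gadd45b, a stress and growth arrest gene, stood at 50.3, 6.84 and 51.5 FPKM (-2.71), Gem, a small GTPase gene, at 33.4, 4.89 and 25.2 FPKM (-2.55), and Pmaip1, a pro-death gene of the Bcl-2 family, at 11.1, 1.70 and 3.91 FPKM (-2.17). In all 4 the library with apoptotic cells was the lowest of 3. Phlda3 went the other way with 1.18, 9.38 and 0.314 FPKM (2.25), and 8 members were listed at 0 in the untreated library only, among them Btg1 at 105 FPKM with apoptotic cells and 144 with LPS. Regulators of G-protein signalling split, with Rgs16 at 35.0, 1.52 and 3.08 FPKM (-3.84) and Rgs18 at 1.96, 16.5 and 0.364 FPKM (2.56). Dusp10, a phosphatase of stress-activated kinases, stood at 21.7, 2.46 and 1.11 FPKM (-2.71), and Dusp23 at 2.58, 13.9 and 5.23 FPKM (2.06). Of 9 Dusp phosphatase genes with a ratio, 6 lay within 2-fold. Of 3 genes of messenger decay with a ratio, Rc3h2, at 19.3, 4.85 and 6.55 FPKM (-1.80), and Dcp2, at 7.05, 1.73 and 2.1 FPKM (-1.56), were lower and Zfp36l2 lay within 2-fold (0.44), while Zfp36, which speeds the decay of cytokine messengers, was listed at 0 untreated, 261 FPKM with apoptotic cells and 155 with LPS.

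The list with the lowest median of those with at least 5 members, cell type markers aside, was a mixed one. It joined genes for serine, folate-linked and other amino acid synthesis with stress and transport genes. The latter include Ddit4, Chac1, Trib3, Atf3, Atf4, Slc1a4 and Slc3a2, so the list median does not describe synthesis genes alone. The factor ATF4 is known to switch on many members of the list when amino acids run short. Of 19 members 10 were lower and 0 higher, with a median of -1.57, and -1.19 relative to genes of the same level. Ddit4, an inhibitor of the growth regulator mTORC1, stood at 69.5 FPKM untreated, 7.34 with apoptotic cells and 9.99 with LPS (-3.08). Chac1, which degrades glutathione, stood at 30.4, 3.45 and 43.2 FPKM (-2.82), and Trib3, a pseudokinase gene, at 52.6, 11.4 and 74.6 FPKM (-2.11). In all 3 the library with apoptotic cells was the lowest. The other lower members were Slc1a4, given above, Mthfd2, Phgdh, Atf4, Gpt2, Mthfd1l and Cth, and Atf3, a stress factor, was level at 48.9, 46.4 and 65.1 FPKM (-0.07). Asns, asparagine synthetase, was listed at 64.7 FPKM untreated and at 0 in both treated libraries. Aminoacyl-tRNA synthetases, which charge transfer RNA, had 3 of 12 members lower and 0 higher. They were Iars, at 44.4, 9.15 and 0 FPKM (-2.16), Yars, at 49.1, 13.8 and 29.1 FPKM (-1.76), and Nars, at 89.3, 43.7 and 86.2 FPKM (-1.01), and each of the scalings tried took Nars within 2-fold.

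The promoters of Chac1 and Atf3 are shown because both hold the letters TTGCATCA, the core of the element through which ATF4 acts, while their ratios differed (-2.82 and -0.07). Each is the stretch of 250 bases before the RefSeq start (GRCm38.p6), for Chac1 chr2:119350992-119351241 on the plus strand and for Atf3 chr1:191183334-191183583 on the minus strand, given 5′ to 3′ on the strand of the gene. Capitals mark TTGCATCA and, in Atf3, the loose NF-kB element.
Chac1: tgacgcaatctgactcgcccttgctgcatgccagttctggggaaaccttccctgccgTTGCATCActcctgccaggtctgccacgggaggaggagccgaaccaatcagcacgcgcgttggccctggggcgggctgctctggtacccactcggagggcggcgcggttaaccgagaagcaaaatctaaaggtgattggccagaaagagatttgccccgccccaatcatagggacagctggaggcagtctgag
Atf3: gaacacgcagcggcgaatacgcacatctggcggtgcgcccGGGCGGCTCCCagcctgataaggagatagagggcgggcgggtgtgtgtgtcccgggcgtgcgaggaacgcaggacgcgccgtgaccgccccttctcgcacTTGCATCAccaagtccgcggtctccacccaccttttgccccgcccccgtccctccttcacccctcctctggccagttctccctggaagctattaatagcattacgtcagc
TTGCATCA began 193 bases before the start of Chac1 and 110 bases before that of Atf3. It was in 3 of the 20 windows of the list members with a ratio, the other being that of Slc1a4, where it lies in the 50 bases after the start. Of all windows 0.895% held it, against 0.802% of those of the higher genes (3 windows), 1.80% of those of the lower genes (8 windows) and 0.347% of those within 2-fold (7 windows). TTGCATCA was searched after the sequences had been seen, and the longer form ATTGCATCA was the one chosen earlier. That longer form was in 0 of the 20 windows of the list and 0.192% of all windows. It was in 0.267% of the windows of the higher genes, 0.225% of those of the lower genes and 0 of those within 2-fold. A match is a description of letters, not a site, and Chac1 and Atf3 are given as examples chosen after their values were seen.

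Several housekeeping systems had a smaller share of members past 2-fold than all genes. Of 24 proteasome genes, assembly factors included, 22 were within 2-fold and 2 lower, the subunit gene Psmb9 (-1.45) and the assembly factor gene Psmg4 (-1.08). Of 15 translation initiation factors all 15 were within 2-fold, and of 23 splicing factors 22. Mitochondrial ribosomal protein genes had 24 of 29 members within 2-fold and 4 higher, and mitochondrial import and dynamics genes 19 of 20. The medians of these 5 lists ran from -0.21 to 0.40, and those of the initiation factors, splicing factors and mitochondrial ribosomal proteins turned sign under median-of-ratios scaling. Ubiquitin conjugating enzymes had 12 of 14 members and the Bcl-2 family and caspases 10 of 12 members within 2-fold. Chromatin modifiers had 3 of 8 members lower and 0 higher: Suz12, a Polycomb subunit gene, at 61.7, 21.9 and 19.9 FPKM (-1.45), the deacetylase gene Hdac1, at 44.0, 15.7 and 15.2 FPKM (-1.43), and Setd7, at 12.2, 4.51 and 1.44 FPKM (-1.26).

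The 10 most abundant genes within 2-fold were all cytosolic ribosomal protein genes. Rplp1 led with 3703 FPKM untreated, 3125 with apoptotic cells and 1993 with LPS (-0.24). Their log2 ratios ran from -1.0 for Rps20 to -0.02 for Rpl41, all below 0 as deposited, with Rpl41 above 0 after median-of-ratios and upper-quartile scaling. Reads of these genes are hard to separate from those of their many processed copies. Of 12 housekeeping control genes 10 lay within 2-fold, with a median of 0.52.

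Markers of other cells differed as well. Peritoneal washes hold B cells, mast cells and shed mesothelial cells besides macrophages. Mast cell markers had 6 of 7 members lower with apoptotic cells, and their summed level was 116 FPKM untreated, 22.9 with apoptotic cells and 19.6 with LPS. The protease genes Mcpt4, at 15.7, 1.81 and 2.22 FPKM (-2.57), and Cma1, at 36.4, 6.0 and 2.89 FPKM (-2.42), were high in the untreated library and low in both others. Mesothelial and fibroblast markers had 3 of 4 members lower, with sums of 100.1, 6.32 and 99.5 FPKM. Macrophages also express C3 of that list, which gives 54.3, 0 and 92.6 FPKM of those sums. The collagen gene Col1a1 stood at 4.47, 0.0802 and 0 FPKM (-2.34). Neutrophil and eosinophil markers had 4 of 6 members higher and 0 lower, with sums of 121, 331 and 504 FPKM. Most of each sum came from Lcn2, given above, and S100a8, at 48.1, 116 and 222 FPKM (1.26). S100a9 lay within 2-fold at 1.65, 1.79 and 0 FPKM (0.07). The dendritic cell, NK cell and platelet lists had 1 marker each with a ratio, Kmo at 5.45, 0.140 and 0.716 FPKM (-2.50), Ccl5, a chemokine gene that macrophages also express, at 292, 67.2 and 1353 FPKM (-2.1), and Pf4, a platelet chemokine gene, at 106, 635 and 702 FPKM (2.57). Ppbp, another platelet chemokine gene of that list, had a mean under 1 FPKM and stood at 1.49, 0.789 and 0 FPKM. The part of these cells in the gene lists above was not tested.

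Lymphocyte markers split by how zeros are handled. All 5 B cell markers with a ratio were at least 2-fold lower, with sums of 866, 316 and 227 FPKM, led by Cxcr5 and by Ly6d, at 563, 42.7 and 73.9 FPKM (-3.69), which early T cells also express. Another 9 markers were listed at 0 in the untreated library only, among them Cd79b, the B cell receptor chain, at 85.6 FPKM with apoptotic cells and 19.1 with LPS, and Faim3 at 47.0 and 9.98 FPKM. With listed zeros counted as values the median of the list turned from -2.02 to 1.31. T cell and thymocyte markers had 2 of 7 members lower, Ly6d and Cd5, with 5 within 2-fold and sums of 638, 186 and 83.7 FPKM, of which Ly6d alone gives most in the untreated library. Rag1, which cuts receptor genes for recombination in immature lymphocytes, was listed at 0 untreated, 41.2 FPKM with apoptotic cells and 0.679 with LPS, and Cd2 at 0, 11.2 and 1.85 FPKM. Of this list 8 markers whose mean reached 1 FPKM, Rag1 and Cd2 included, had a zero in the untreated library only, which may be a failed estimate, and others were level or lower. Rag2, its partner in the recombinase, stood at 1.43 FPKM untreated, 0.902 with apoptotic cells and 0 with LPS, Dntt, which adds bases during recombination, at 13.5, 13 and 0.160 FPKM (-0.04), and Thy1, a surface marker of T cells, at 15.0, 13 and 0.219 FPKM (-0.19). Rag2, Dntt and Thy1 were chosen after their values were seen. RNA of the macrophages and of engulfed or bound cells cannot be told apart. The part of lymphocyte RNA in the comparison was not tested.

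**Figure D5:**
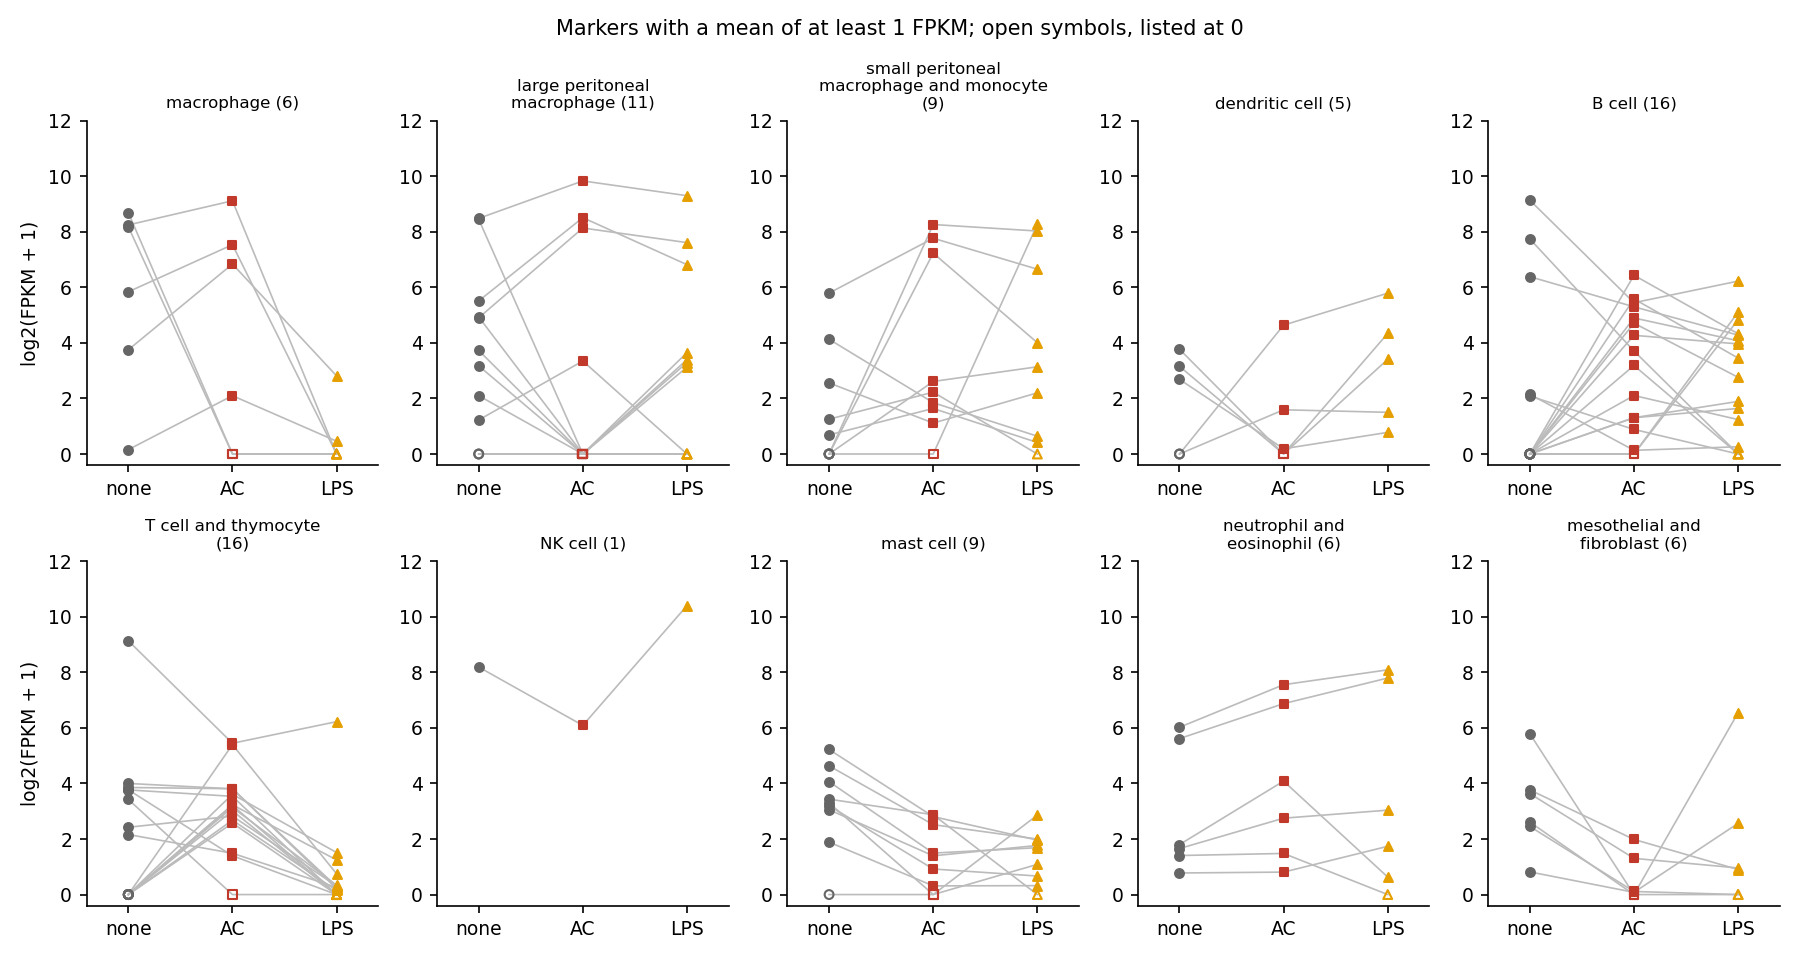
Levels of cell type markers whose mean reached 1 FPKM, as log2(FPKM + 1) on the y axis, in the untreated library (none, grey circles), with apoptotic cells (AC, red squares) and with LPS (orange triangles); lines join 1 gene, open symbols are listed zeros, and the number of markers is in parentheses. Mast cell markers are highest untreated, and many B cell and T cell markers leave 0 only in the treated libraries.

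Xist, the RNA that silences an X chromosome in female cells, stood at 22.8 FPKM untreated, 0.788 with apoptotic cells and 1.04 with LPS (-3.74). The Y-linked genes Ddx3y, Eif2s3y, Kdm5d and Uty were listed at 0 in all 3 libraries. Eif2s3x, the X-linked counterpart of Eif2s3y, was level at 64.5, 59.1 and 51.4 FPKM. The untreated library thus differed from both others in Xist, and the source of that difference was not tested.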

How the data were processed

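The deposited tables give 1 value per gene symbol and library. Their unit was taken as FPKM: the labels name none, but the submitters' processing notes name Cufflinks 2.2.1 and Cuffdiff beside cutadapt 1.14, TopHat2 2.1.0 and the build mm10, so the authors' values were used as deposited FPKM. Options, annotation and strandedness are not stated in the labels, so reads of overlapping, antisense or near-identical genes may not be separated.

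Ratios were log2((FPKM + 1) / (FPKM + 1)) of genes above 0 in both libraries with a mean of 1 FPKM or more; the pseudocount of 1 understates differences of low genes. Genes past 2-fold were counted, with no test, since each group had 1 library. Named genes were the 20 largest ratios each way, leaving out small RNAs and uncharacterised models, up to 4 members of each list by size of the ratio, up to 2 members listed at 0 in 1 library, the 10 most abundant genes within 2-fold and cell type markers. A few genes named by this rule are not reported here. The members and lists were chosen with earlier results of these data known. Alternatives were other pseudocounts, filters, thresholds, scalings and handling of zeros. Coordinates came from GENCODE M21 and promoter windows from RefSeq (GRCm38.p6). The steps were run with Python 3.11.15 and pandas 2.3.3 and tested on simulated data.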

Additional observations from a re-analysis of the deposited data

How the results depend on the processing

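The counts of 418 higher and 554 lower genes became 235 and 228 with a pseudocount of 5, and the median log2 ratio of all genes -0.0798. With a mean of 5 FPKM required, 297 genes were higher and 268 lower, so the higher ones outnumbered the lower, and the median was 0.00464. The median was 0.0554 under median-of-ratios scaling and -0.0733 under upper-quartile scaling, which shifted it by 0.19 and 0.06. Counting every listed 0 as measured gave 2682 and 1378 genes with a median of 0.13. By construction this adds every gene listed at 0 in 1 of the libraries compared and at 1 FPKM or more in the other. Restricting the genes to those with 1 RefSeq transcript, an alternative chosen after seeing the data that tests fewer genes, left 248 and 327. Thresholds of 1.5-fold and 4-fold gave 746 and 1021, and 96 and 143. Each list median under an alternative was set against an interval around the reported median, drawn from the ranked members, or a fixed distance for the shortest lists. Of 450 such medians, 415 fell inside and 32 outside, and 3 of those past 2-fold turned sign. In some short lists the interval spans all members, so falling inside it says little there. All 3 that turned did so with listed zeros counted: complement at -4.39, messenger decay at 0.44 and B cell markers at 1.31. Another 12 lists, whose medians lay within 2-fold, turned sign under at least 1 alternative, 7 of them under median-of-ratios scaling. Small peritoneal macrophage markers went from 0.95 to -0.19 under upper-quartile scaling. Of 76 named genes at least 2-fold lower, 8 came within 2-fold under median-of-ratios scaling, 3 under upper-quartile scaling and 2 with equal sums. Of 94 named genes at least 2-fold higher, 0 did under any of the 3. All 3 scalings shifted the median ratio upward, so a higher gene could hardly come within 2-fold. That 0 therefore says nothing of how firm the higher genes are. The ratios of named genes depended on the pseudocount: 117 of 221 moved with a pseudocount of 5 and 63 with 0.1. No paired analysis was possible because each group has 1 library. Differences between genes of a few FPKM rest on few reads, and nothing here separates treatment from the variation between cultures.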
